A study of Mus musculus with 6 samples.

Results

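Collagens, laminins, integrins and their closest matrix partners were followed in cultured mouse hepatocytes exposed to cyclosporin A (CsA). Members were set by a rule on gene symbols, chosen with earlier results of these data known. They were 40 collagen chains, 10 laminin chains, 18 integrin subunits named by a number, and Fn1, Nid1, Nid2, Sparc, Thbs1 and Hspg2. They made up 74 of the 16331 rows of the expression table, 1 row per gene. The RefSeq gene table lists 82 protein-coding genes that fit the same rule, and the other 8 were not analysed here. Genes of integrin-binding proteins, such as Itgb1bp1, and integrin subunits named by a letter, such as Itgav, are not members and are given separately.

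The cells were primary hepatocytes of male C57Bl6 mice, plated on a collagen gel and then covered with a second collagen layer, so that both groups lay in added collagen. Serum was present during attachment and left out afterwards, when the medium held insulin, glucagon and hydrocortisone. One group was exposed to 10 µM CsA for 48 hours and the other to 0.5% DMSO, the vehicle, and each had 3 arrays, described as independent experiments from different animals. The labels do not say whether DMSO was also in the CsA cultures. The sample titles carry one code on all 3 CsA arrays and a different code on each DMSO array, and what the code marks is not stated. CsA suppresses immune responses by binding cyclophilins and thereby blocking the phosphatase calcineurin.

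Collagens are triple helices of 3 chains: the fibrillar types form the fibres of connective tissue, whereas type IV collagen forms the sheet of basement membranes together with laminins, nidogens and perlecan. Laminins are trimers of an alpha, a beta and a gamma chain. Integrins are pairs of an alpha and a beta subunit that bind these proteins outside the cell and link them to the cytoskeleton inside. In liver, fibrillar collagen comes mainly from stellate cells and fibroblasts, while hepatocytes secrete plasma fibronectin and are a known source of type XVIII collagen.

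Expression is on the log2 scale of RMA, on which a difference of 1 is a 2-fold change. Array medians lay between 6.70 and 6.78, and pairs of arrays correlated across rows at 0.990 to 0.997 in the same group and at 0.969 to 0.981 in different groups. Of the hepatocyte markers, all 6 measured lay above the median of all rows in DMSO, with Alb at 15.29 ± 0.01 (SD, n = 3). Markers of other cells were dim. Of the genes measured for each cell type, 12 of 14 stellate and fibroblast, 12 of 13 endothelial, 9 of 10 macrophage, 5 of 6 cholangiocyte, 7 of 7 lymphocyte and neutrophil, and 5 of 5 platelet markers lay at or below that median. After CsA 4 of the 6 hepatocyte markers were lower, and the list's summed level (log2 of the summed unlogged values) was 16.44 to 16.45 on the DMSO arrays and 15.89 to 16.11 on the CsA arrays. In whole cultures fewer cells of a type and less RNA per cell cannot be told apart.

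Most members were dim in DMSO, and few changed after CsA. Their DMSO means ran from 3.03 (Col6a5) to 12.92 (Fn1), with a median of 5.27, against a median of 6.76 over all rows, and 18 of the 74 (24.3%) lay above it. No detection call was used, and the brightness of different probe sets is not a measure of the relative amounts of their transcripts. After CsA 7 members were lower (Col4a1, Col4a2, Col4a5, Col18a1, Fn1, Thbs1 and Itga1) and 1 was higher (Lamc1), at an adjusted p under 0.05 in limma, and 66 did not pass. The 8 are 10.8% of the members, against 18.6% of all rows. The share lower was 9.46% against 9.05% of rows, and the share higher 1.35% against 9.55%. The groups did not overlap in 23 members (31.1%), against 35.1% of rows. An unadjusted limma p under 0.05 was found for 16 of the 74 members and for 5098 of the 16331 rows. The median difference was -0.06 over the members and 0.04 over all rows. All 8 lay above the median of all rows in DMSO. Of the 16 members whose mean over all 6 arrays was above the median, 7 passed (43.8%), against 30.0% of such rows. With the replicate number as a block, which takes same-numbered arrays as a pair, 12 members were lower and 3 higher, against 12.9% and 15.8% of rows.

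**Figure D1:**
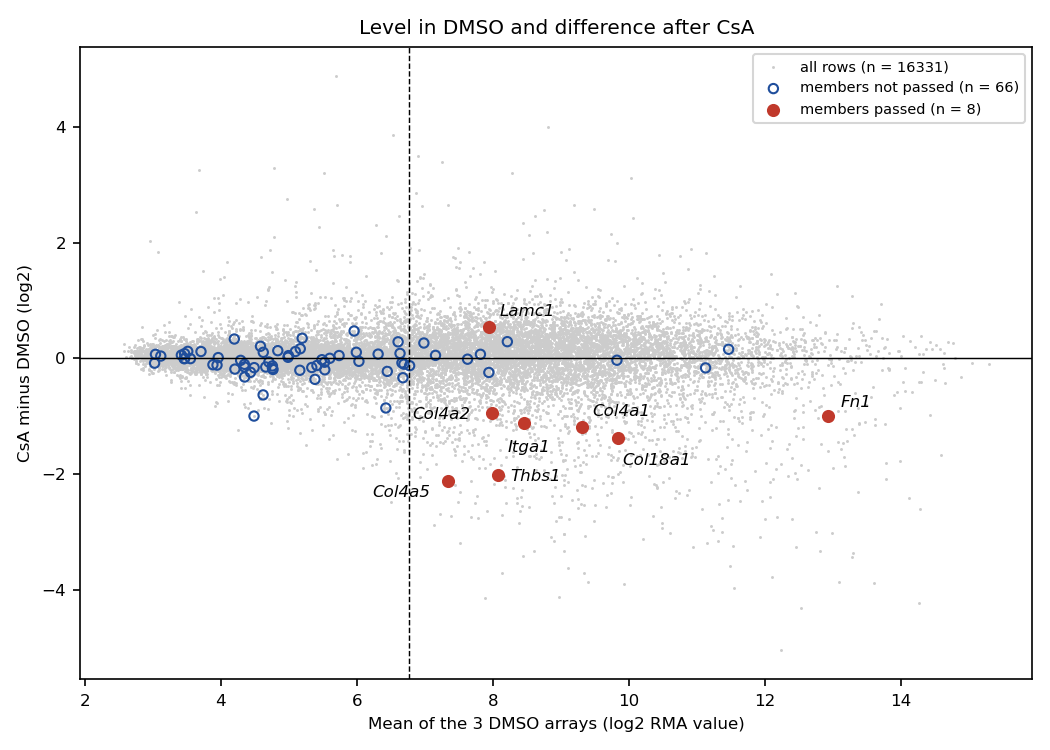
Each point is a row of the table, with its mean over the 3 DMSO arrays on the x axis and the difference CsA minus DMSO on the y axis, both on the log2 scale. Grey points are all 16331 rows, open circles the 66 members that did not pass, filled circles the 8 that did, and the dashed line is the median of all rows at 6.76. The 8 filled circles lie to the right of that line, 7 below 0 and Lamc1 above it.

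Of the 6 type IV chains, the collagen of basement membranes, 3 were lower, 0 higher and 3 did not pass, beside 9.05% of all rows lower. Col4a1, which encodes the alpha 1 chain found in basement membranes throughout the body, read 9.62, 9.21 and 9.11 on DMSO replicates 1, 2 and 3 and 8.17, 7.94 and 8.28 on CsA replicates 1, 2 and 3. All CsA arrays were below all DMSO arrays, and the difference was -1.18 ± 0.16 (log2 difference ± SE), 2.27-fold, with a limma adjusted p of 0.00138. Its partner Col4a2, which encodes the alpha 2 chain of the same trimer, read 8.49, 7.92 and 7.54 in DMSO and 7.23, 6.95 and 6.95 in CsA. The groups again did not overlap, with a difference of -0.94 ± 0.22 (1.92-fold, limma adjusted p = 0.0187). Leaving out DMSO replicate 2 gave -0.97 and an adjusted p of 0.0568, and leaving out CsA replicate 2 gave -0.89 and 0.0707.

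Col4a5, which encodes the alpha 5 chain, the chain mutated in X-linked Alport syndrome, showed the largest change of the 74 members. It read 7.67, 7.74 and 6.59 in DMSO and 5.37, 5.23 and 5.04 in CsA, so that DMSO replicate 3 was the lowest of its group and still above every CsA array. The difference was -2.12 ± 0.28, which is 4.34-fold (limma adjusted p = 0.00134), and it lay between -2.51 and -1.54 in the same-numbered comparisons. Col4a6, whose alpha 6 chain joins alpha 5 in some basement membranes, read 6.03, 5.98 and 6.08 in DMSO and 5.87, 5.74 and 6.32 in CsA. The groups overlapped, and its difference of -0.05 ± 0.15 did not pass. Col4a3 and Col4a4, whose chains form a trimer with alpha 5 in the kidney glomerulus, were dim at 4.58 ± 0.18 and 3.42 ± 0.09 in DMSO (SD, n = 3 each) and differed by 0.21 and 0.05 without passing.

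These type IV genes lie in head-to-head pairs, which is why their start sites are shown. In the RefSeq promoter table of build GRCm38.p6, Col4a1 and Col4a2 start on opposite strands of chromosome 8, and the first 22 transcribed bases of each are the same stretch, chr8:11312805-11312826, printed here from the plus strand.
Col4a1 and Col4a2 shared start: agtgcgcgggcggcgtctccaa
Within each array the Col4a1 value minus the Col4a2 value was 1.33 ± 0.22 in DMSO and 1.09 ± 0.21 in CsA (SD, n = 3 each), a change of -0.24 (two-sided exact permutation p = 0.3, adjusted p = 0.3 over 3 gene pairs). The smallest p that 3 against 3 arrays can give is 0.1, so this test could not pass. In the same-numbered arrays the changes were -0.19, -0.30 and -0.24, a larger fall of Col4a1 than of Col4a2 in 3 of 3.

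Col4a5 and Col4a6 also point away from each other, on the X chromosome, with 1342 bases between their start sites. The Col4a5 value minus the Col4a6 value went from 1.30 ± 0.69 in DMSO to -0.76 ± 0.44 in CsA, a change of -2.06. Every DMSO array was above every CsA array, and the two-sided exact permutation p was 0.1, the smallest that 3 against 3 arrays can give (adjusted p = 0.3 over 3 gene pairs). The 250 bases before each start are printed for this pair because only Col4a5 passed the test, Col4a5 from chrX:141475169-141475418 on the plus strand and Col4a6 from chrX:141474077-141474326 on the minus strand. Capitals mark GGGCGG (the GC box), CCAAT and GGAAA on either strand, the last being the core letters of sites for NFAT, the factors that calcineurin activates.
Col4a5 promoter: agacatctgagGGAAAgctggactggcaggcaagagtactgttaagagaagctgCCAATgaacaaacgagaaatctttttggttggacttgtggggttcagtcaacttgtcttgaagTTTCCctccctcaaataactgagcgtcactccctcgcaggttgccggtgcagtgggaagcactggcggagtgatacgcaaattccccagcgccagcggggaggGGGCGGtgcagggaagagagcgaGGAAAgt
Col4a6 promoter: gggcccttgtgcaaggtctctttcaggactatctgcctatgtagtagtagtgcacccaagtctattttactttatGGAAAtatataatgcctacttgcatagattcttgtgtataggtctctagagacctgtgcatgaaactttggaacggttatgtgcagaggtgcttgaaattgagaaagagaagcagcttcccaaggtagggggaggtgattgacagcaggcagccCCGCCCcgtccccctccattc
The Col4a5 window holds 1 GC box, 1 CCAAT and 3 matches to GGAAA. The Col4a6 window holds 1 GC box and 1 match to GGAAA. The table has 32851 windows of 250 bases, of which 32.7% hold a GC box. Members had 59 windows, from 53 genes, of which 52.5% hold one. The CCAAT letters were in 33.8% of all windows and 27.1% of the members' windows. The GGAAA letters were in 55.6% of all and 52.5% of the members' windows. The TATA box, searched as TATAAA, was in 12.4% and 8.5%, and the cyclic AMP response element, searched as its full palindrome, in 1.5% and 0.0%. The matches do not overlap one another in the printed windows, and a match describes letters only.

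Col18a1 encodes a multiplexin collagen of basement membranes whose end fragment is endostatin. It read 9.99, 9.84 and 9.69 in DMSO and 8.48, 8.33 and 8.60 in CsA. The arrays of each group lay close together and far from the other group, with a difference of -1.37 ± 0.12, 2.59-fold, and the smallest adjusted p among the members (0.000205 in limma). The other multiplexin gene, Col15a1, read 5.66, 5.39 and 5.53 in DMSO and 5.23, 5.31 and 5.45 in CsA and did not pass (-0.20 ± 0.12). RefSeq gives Col18a1 separate start sites on the minus strand of chromosome 10, and its row does not tell their transcripts apart. The windows before the upstream start, chr10:77166531-77166780, and the downstream start, chr10:77113706-77113955, are shown for that reason, with capitals as above.
Col18a1 upstream start: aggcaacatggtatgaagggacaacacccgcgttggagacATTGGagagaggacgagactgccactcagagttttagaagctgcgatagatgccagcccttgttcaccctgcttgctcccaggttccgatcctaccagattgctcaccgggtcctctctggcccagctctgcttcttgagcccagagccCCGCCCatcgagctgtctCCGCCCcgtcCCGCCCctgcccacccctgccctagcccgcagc
Col18a1 downstream start: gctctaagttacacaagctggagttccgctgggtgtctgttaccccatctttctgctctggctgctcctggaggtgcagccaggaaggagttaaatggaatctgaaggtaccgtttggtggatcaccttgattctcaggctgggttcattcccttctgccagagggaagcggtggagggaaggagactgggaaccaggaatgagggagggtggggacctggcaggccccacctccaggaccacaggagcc
The upstream window holds 3 GC boxes and 1 CCAAT, and the downstream window holds 0 of the letter sets searched.

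**Figure D2:**
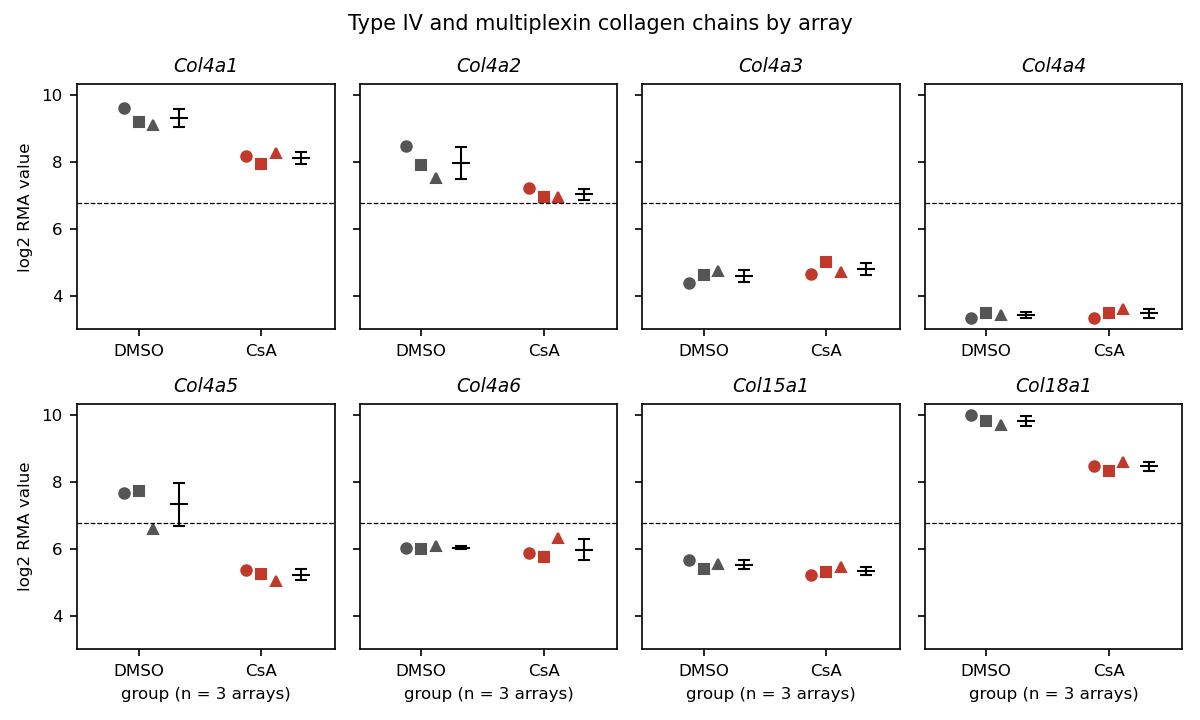
Log2 RMA values (y axis) of the 6 type IV and 2 multiplexin collagen genes on each array, by group on the x axis, with circles, squares and triangles for replicates 1, 2 and 3 and the mean ± SD (n = 3) beside them. Col4a1, Col4a2, Col4a5 and Col18a1 show no overlap between groups, and the other 4 genes lie below the dashed median of all rows (6.76) in both groups.

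All 11 fibrillar collagen genes lay below the median of all rows in DMSO, with Col27a1 (6.68) the brightest. Of the 11, 0 passed in limma, and 4 had an unadjusted p under 0.05, beside 5098 of all 16331 rows. Col1a1 and Col1a2, which encode the chains of type I collagen, the protein of the culture gel itself, illustrate the level. Col1a1 read 4.46, 4.34 and 4.67 in DMSO and 4.11, 4.54 and 4.34 in CsA, and Col1a2 read 4.81, 4.57 and 4.92 in DMSO and 4.62, 4.60 and 4.50 in CsA. Both pairs of groups overlapped, and the differences were -0.16 ± 0.14 and -0.19 ± 0.12.

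Col3a1, which encodes type III collagen of reticular fibres, read 5.46, 3.93 and 4.07 in DMSO and 3.49, 3.41 and 3.57 in CsA. DMSO replicate 1 stood apart from its group, though all CsA arrays were below all DMSO arrays. The difference of -0.999 ± 0.347 had an adjusted p of 0.0817 in limma, 0.0312 with the replicate block and 0.0351 without DMSO replicate 1, where it was -0.51. Col5a2 (-0.32) and Col27a1 (-0.34), both chains of fibrillar collagens, passed with the replicate block (adjusted p = 0.0391 and 0.0403) and under no other alternative run. Col11a2, another such chain, went the other way, higher without overlap (0.35 ± 0.12), at an adjusted p of 0.0828 in limma. It passed under 4 of 13 alternatives, though not with the replicate block. Markers of stellate cells and fibroblasts are given beside these values. DMSO replicate 1 was also the highest array for Dcn (7.36) and Lum (5.00), which encode small proteoglycans of collagen fibres, and for Acta2 (7.22) and Tagln (8.11), which encode contractile proteins. These 4 were picked after their values were seen. Over all 14 such markers the array medians were 5.11 to 5.21 in DMSO and 4.95 to 5.20 in CsA. Of the 14, 2 were lower (Acta2, -1.18, and Tagln, -1.20) and 0 higher, or 4 lower with the replicate block, and their summed level was 10.70 to 11.88 in DMSO and 10.27 to 11.50 in CsA. Pdgfrb (3.92) and Lrat (3.21), also picked after their values were seen, had DMSO means near the bottom of a scale that began at 2.44. The DMSO means of the 14 markers ran from 3.21 to 11.00, with 2 above the median of all rows. The part of stellate cells and fibroblasts in the result was not tested.

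The other 21 collagen chains, of the network, anchoring, fibril-associated and transmembrane types, had differences between -0.16 and 0.47. Of these chains 0 passed in limma, and 2 had an unadjusted p under 0.05, beside 5098 of all 16331 rows. Their DMSO means ran from 3.03 to 7.82, with 2 above the median of all rows, Col6a2 (6.78) and Col25a1 (7.82). Col20a1, a fibril-associated chain, had the largest of these differences. It read 5.90, 5.94 and 6.04 in DMSO and 6.45, 6.16 and 6.69 in CsA without overlap, at an adjusted p of 0.0521 in limma and 0.018 with the replicate block.

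Laminin chains other than Lamc1 did not pass. Lamc1 encodes the gamma 1 chain, which most laminins share. It read 8.19, 7.88 and 7.76 in DMSO and 8.52, 8.55 and 8.42 in CsA, without overlap, and rose by 0.55 ± 0.13 (1.46-fold, limma adjusted p = 0.0203). The direction is opposite to that of the type IV collagen chains beside which it is laid down. It did not pass when DMSO replicate 2, CsA replicate 1 or CsA replicate 2 was left out, with differences of 0.52, 0.54 and 0.52 and adjusted p of 0.0806, 0.065 and 0.0809. Lamb1, which encodes the beta 1 chain that pairs with gamma 1, was near the bottom of the scale at 3.51, 3.42 and 3.72 in DMSO and 3.55, 3.50 and 3.59 in CsA. Lama5, which encodes the alpha chain of the laminin most common in adult basement membranes, read 6.44, 6.31 and 6.60 in DMSO and 6.29, 6.04 and 6.33 in CsA, a difference of -0.23 ± 0.13 that did not pass. The 5 alpha, 3 beta and 2 gamma chains measured included 1 row above the median of all rows in DMSO, that of Lamc1.

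The linkers Nid1, Nid2 and Hspg2 of the basement membrane did not pass. Nid1 encodes nidogen 1, which connects laminin to type IV collagen. It read 11.95, 11.25 and 11.19 in DMSO and 11.78, 11.57 and 11.51 in CsA, with a difference of 0.16 ± 0.20. Hspg2, which encodes the heparan sulfate proteoglycan perlecan, read 7.74, 7.53 and 7.61 in DMSO and 7.49, 7.60 and 7.75 in CsA, with a difference of -0.02 ± 0.11. In both genes the groups overlapped. Nid2, a related nidogen, was dim at 5.30, 5.14 and 5.04 in DMSO and 4.56, 4.99 and 5.31 in CsA, with overlap and a difference of -0.21 ± 0.18.

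Fn1 was the brightest member, and its signal fell. It encodes fibronectin, the protein through which integrins hold many cells to the matrix and which hepatocytes secrete into plasma. It read 12.92, 12.96 and 12.89 in DMSO and 12.18, 12.06 and 11.55 in CsA. The DMSO arrays lay close together (SD 0.04) and the CsA arrays farther apart (SD 0.33), and the groups did not overlap. The fall was 0.99 on the log2 scale (-0.99 ± 0.16, 1.99-fold, limma adjusted p = 0.00356). Fn1 was brighter in DMSO than 99% of rows.

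Thbs1 encodes thrombospondin 1, a matrix protein that binds CD36 and CD47 and can activate latent TGF-beta. It read 8.44, 8.29 and 7.48 in DMSO and 6.45, 7.01 and 4.69 in CsA. CsA replicate 3 was far below the others, and the CsA spread was the widest among the members (SD 1.21). The difference was -2.02 ± 0.53 (4.06-fold, limma adjusted p = 0.0289), and -1.34 without CsA replicate 3, where it still passed (adjusted p = 0.0159). It did not pass when DMSO replicate 1, DMSO replicate 2 or CsA replicate 1 was left out, with differences of -1.83, -1.91 and -2.22 and adjusted p of 0.0881, 0.0968 and 0.0505.

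Sparc encodes osteonectin, a collagen-binding glycoprotein. It read 6.95, 5.99 and 6.34 in DMSO and 5.82, 5.12 and 5.76 in CsA. Every CsA array was below every DMSO array, at a difference of -0.86 ± 0.26 and an adjusted p of 0.0531 in limma. It passed with the replicate block (adjusted p = 0.00227), and the same-numbered differences lay between -1.13 and -0.57. DMSO replicate 1 was the highest array, and without it the difference was -0.60 (adjusted p = 0.142).

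**Figure D3:**
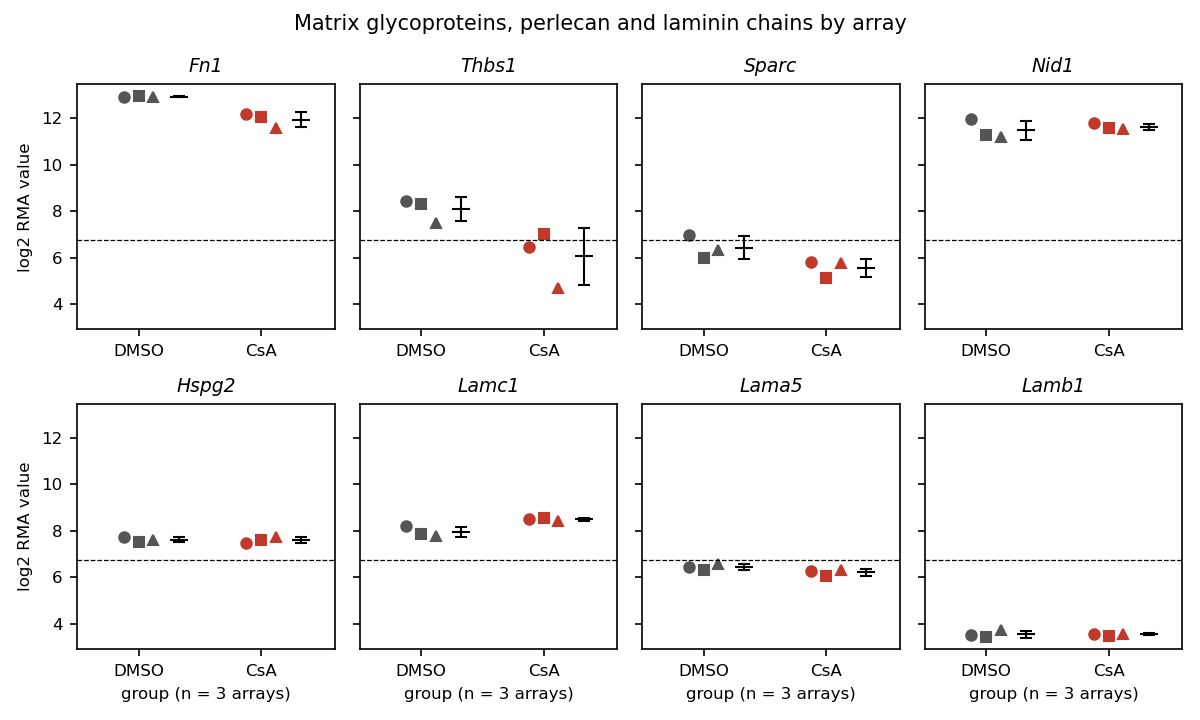
Log2 RMA values (y axis) of 5 matrix glycoprotein and proteoglycan genes and 3 laminin chains on each array, by group on the x axis, with circles, squares and triangles for replicates 1, 2 and 3, the mean ± SD (n = 3) beside them and the median of all rows dashed at 6.76. Fn1, Thbs1 and Sparc are lower and Lamc1 higher on every CsA array than on every DMSO array, while Nid1, Hspg2, Lama5 and Lamb1 overlap.

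Among integrins 1 of 18 subunits passed, and it was lower. Itga1 encodes the alpha 1 subunit, which with beta 1 forms a receptor for type IV and type I collagen and is the chief collagen-binding integrin of hepatocytes. It read 8.22, 8.92 and 8.25 in DMSO and 7.09, 7.43 and 7.53 in CsA. The groups did not overlap, and the difference was -1.12 ± 0.20 (2.17-fold, limma adjusted p = 0.00616). Its beta partner Itgb1, shared by many alpha subunits, was bright at 11.41, 11.32 and 10.65 in DMSO and 11.35, 11.27 and 10.27 in CsA. Both arrays numbered 3 were the lowest of their groups, and the difference of -0.17 ± 0.30 did not pass. The Itga1 value minus the Itgb1 value changed by -0.95 between groups (two-sided exact permutation p = 0.2, adjusted p = 0.3 over 3 gene pairs), in the same design, which could not pass. It was lower in 3 of 3 same-numbered comparisons.

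The fall of Itga1 makes its start of interest, and the 250 bases before it, chr13:115101965-115102214 on the minus strand, are printed with capitals as above.
Itga1 promoter: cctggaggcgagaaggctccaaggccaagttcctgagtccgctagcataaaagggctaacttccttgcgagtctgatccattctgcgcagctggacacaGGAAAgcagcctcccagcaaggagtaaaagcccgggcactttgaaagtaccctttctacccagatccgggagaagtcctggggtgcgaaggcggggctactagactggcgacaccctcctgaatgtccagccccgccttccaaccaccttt
It holds 1 GGAAA match and 0 of the other letter sets. Fn1, Thbs1 and Lamc1 had no entry in the promoter table.

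The other alpha subunits had differences between -0.24 and 0.29. Itga5, the alpha subunit of the classical fibronectin receptor, read 6.68, 6.52 and 6.88 in DMSO and 6.36, 6.67 and 6.74 in CsA and did not pass (-0.10 ± 0.14). Itga2, the alpha subunit of another collagen receptor, differed by 0.00 ± 0.12. Itga6, of a laminin receptor, read 8.30, 8.31 and 8.03 in DMSO and 8.58, 8.59 and 8.32 in CsA, higher without overlap (0.29 ± 0.13), with an adjusted p of 0.168 in limma, and passed with the replicate block (adjusted p = 0.0453) and with array weights. Itga3, of another laminin receptor, differed by -0.24 ± 0.13.

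Of the 8 beta subunits 0 passed in limma, and 1, Itgb6, had an unadjusted p under 0.05, beside 5098 of all 16331 rows. Itgb5, a partner of alpha V in a vitronectin receptor, was bright and steady at 9.86, 9.85 and 9.76 in DMSO and 9.87, 9.75 and 9.75 in CsA (-0.03 ± 0.10). Itgb6, of an epithelial receptor that activates TGF-beta, read 5.18, 4.16 and 4.52 in DMSO and 4.03, 4.07 and 3.86 in CsA. The groups did not overlap. Its difference was -0.63 ± 0.23, and its adjusted p was 0.0914 in limma and 0.0392 with the replicate block. Without DMSO replicate 1, the highest array, the difference was -0.35 (adjusted p = 0.192). Among subunits of blood cells, Itgb2 (4.44 ± 0.31 in DMSO) and Itga4 (4.35 ± 0.10) were dim. Itgb7 (7.16 ± 0.03) and Itga2b (6.99 ± 0.09), also of blood cells, lay above the median of all rows in DMSO and did not pass in limma. Of 5 letter-named subunits 0 passed in limma, with 0 at an unadjusted p under 0.05. Itgav, the alpha V subunit, read 7.25, 6.55 and 6.71 in DMSO and 7.46, 7.20 and 6.66 in CsA (0.27 ± 0.24).

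**Figure D4:**
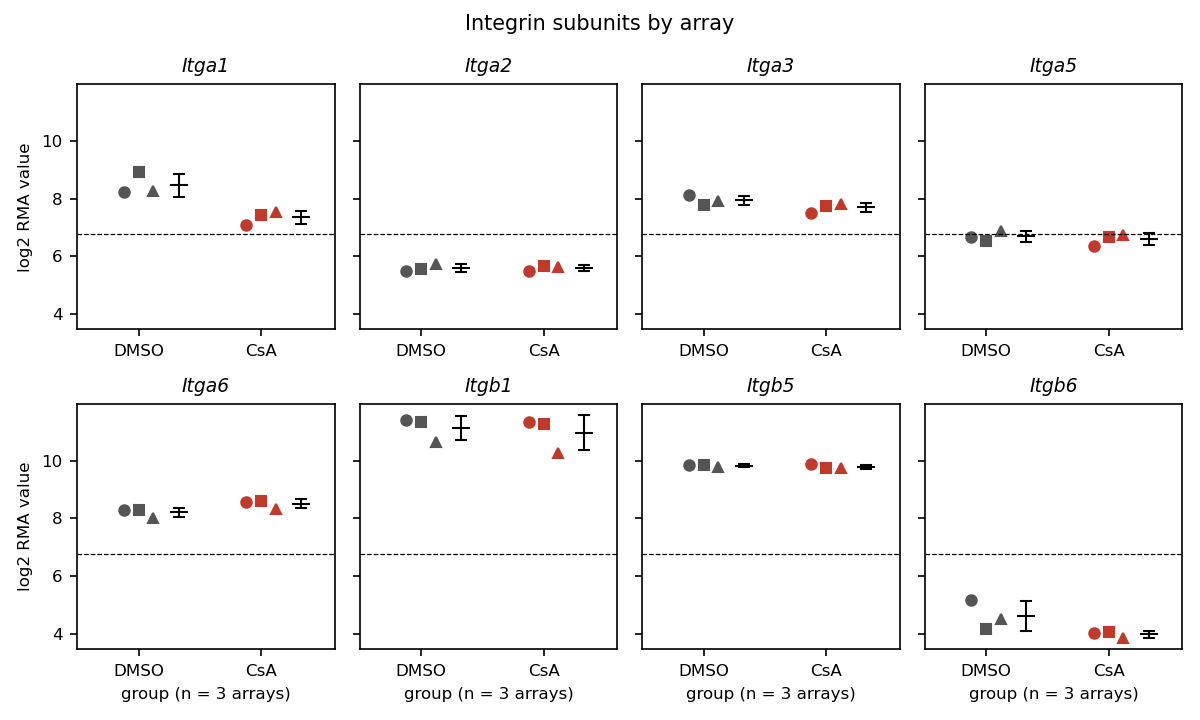
Log2 RMA values (y axis) of 8 integrin subunits on each array, by group on the x axis, with circles, squares and triangles for replicates 1, 2 and 3, the mean ± SD (n = 3) beside them and the median of all rows dashed at 6.76. Itga1 and Itgb6 are lower and Itga6 is higher on every CsA array than on every DMSO array, and of these only Itga1 passed in limma. Itgb1 shows both arrays numbered 3 below the rest of their groups.

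Genes that make, cross-link, cut or bind the members' products were read from 6 lists, of which 148 genes were measured. Of these 5 were higher and 30 lower, against 9.55% and 9.05% of all rows. The lists were chosen with earlier results of these data known, so these counts only describe the lists. Collagen processing moved in both directions, with 3 of 23 genes higher and 6 lower (3 and 8 with the replicate block) and a median difference of -0.04. The genes that rose were P3h1 (0.82), P4hb (0.71) and P4ha2 (0.50), all of enzymes that hydroxylate prolines in new collagen chains. Those that fell included Loxl2 (-1.77), Loxl4 (-0.79) and Lox (-0.73), whose products cross-link finished collagen, Plod1 (-0.49), a lysyl hydroxylase, and Colgalt1 (-0.85), which adds galactose to collagen. Crtap, a partner of the P3h1 product, fell by 0.54 on the log2 scale. Serpinh1, the collagen chaperone HSP47, did not pass (0.19), nor did P4ha1 (0.19), another prolyl hydroxylase gene, and neither did Ppib (0.25 ± 0.11), which encodes cyclophilin B, a proline isomerase that works with P3h1 and is bound by CsA.

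Of 29 matrix turnover genes 0 were higher and 2 lower (1 and 3 with the replicate block), with a median difference of -0.04. Plat, which encodes tissue plasminogen activator, had the largest fold of these, 8.94-fold (-3.16 ± 0.21, limma adjusted p = 6.01e-05), and Timp1, an inhibitor of metalloproteinases, was lower (-0.999). Mmp2, a gelatinase, did not pass (-0.10). Of 48 other matrix proteins 0 were higher and 9 lower (0 and 12 with the block), with a median of -0.07. Vtn, which encodes the plasma protein vitronectin made by hepatocytes, fell by 2.12 on the log2 scale (limma adjusted p = 4.7e-05). Ccn2, which encodes connective tissue growth factor, was lower (-2.24), as were Smoc1 (-1.83) and Smoc2 (-1.90), relatives of Sparc found in basement membranes, and Tinagl1 (-1.72), a basement membrane glycoprotein.

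Of 20 matrix receptors other than integrins 1 was higher and 8 lower, with a median of -0.19. Cd36, which encodes a fatty acid transporter that also binds thrombospondin 1, had the largest fold in the list at 12.4-fold (-3.63 ± 0.33, limma adjusted p = 0.000238). Cd47, another thrombospondin receptor, fell by 0.59 on the log2 scale. The syndecan genes Sdc1 (-0.77), Sdc2 (-1.12) and Sdc4 (-0.93), which encode heparan sulfate proteoglycans of the cell surface, were lower. The glypican genes split, with Gpc4 lower (-0.78) and Gpc1 higher (0.53). Ddr1, a collagen receptor kinase, did not pass (-0.25), nor did Cd44, the hyaluronan receptor (0.10).

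Of 23 genes that link integrins to the cytoskeleton 1 was higher and 5 lower (2 and 7 with the block), with a median of -0.12. Tns1, which encodes tensin 1 of mature adhesions, fell by 1.77 on the log2 scale (limma adjusted p = 0.000202). Parva (-1.12) and Ilk (-0.55) encode proteins of one complex at the tails of beta integrins, Tln1 (-0.52) encodes talin, which switches integrins on, and Ptk2b (-0.74) a kinase related to focal adhesion kinase. The gene that rose was Itgb1bp1 (0.58), whose product binds the tail of integrin beta 1 and restrains it.

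The 8 member calls differed in how far they held when the processing was altered. Col18a1, Col4a1, Fn1 and Itga1 passed under all 14 alternatives run and Col4a5 under all 13 that gave it a value. Col4a2 passed under 12 of 14, and Thbs1 and Lamc1 under 11 of 14 each, with the losses given beside their values. At a threshold of 0.01 Col4a2, Thbs1 and Lamc1 did not pass. The same-numbered differences of the 7 lower members were below 0 in 3 of 3 numbers, and those of Lamc1 above 0 in 3 of 3 (0.33, 0.67 and 0.66).

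**Figure D5:**
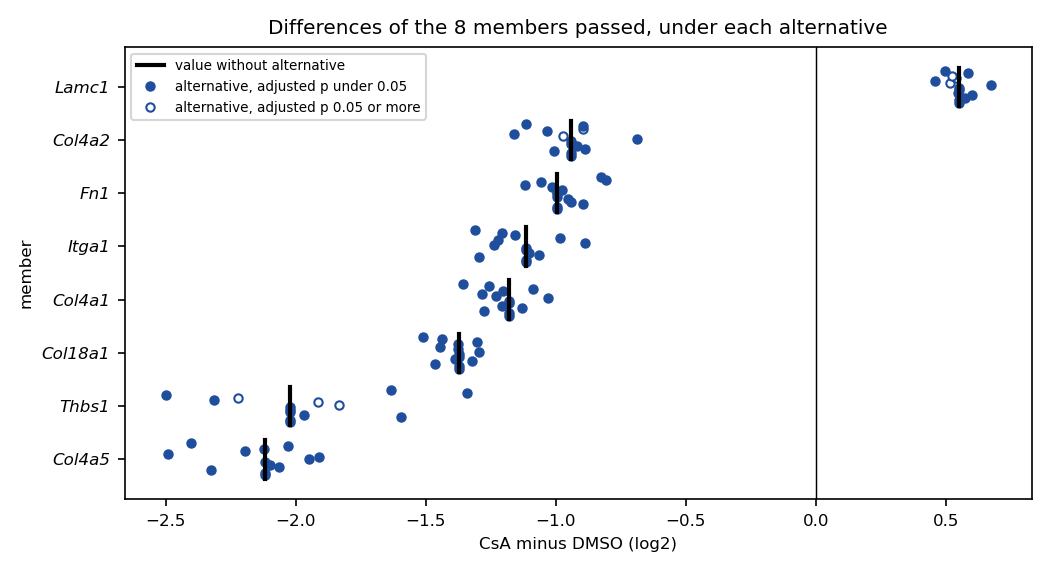
Difference CsA minus DMSO (x axis, log2) of the 8 members that passed (y axis) under each alternative, with the value as reported shown by a black bar. Filled points have an adjusted p under 0.05 and open points do not, and open points occur for Col4a2, Thbs1 and Lamc1, while no point crosses 0.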

How the data were processed

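RNA of 6 cultures was measured on arrays, 3 with CsA and 3 with DMSO. The deposited values are log2 and come from RMA. The notes on processing by the submitters name R 2.11.0 and, with the labels, give neither array type nor probe set definition. Symbols came from the platform annotation: 15136 of 16331 rows had one, and all matched the RefSeq table unchanged. Nothing was renormalized.

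Differences were fitted over all rows with limma 3.58.1 in R 4.3.3 (lmFit, eBayes, two-sided), with Benjamini-Hochberg adjustment over all rows and a threshold of 0.05. The fit was tested on simulated data. Folds are 2 to the power of the absolute difference. The number of arrays limits precision. The limma p-values set each difference against the spread between these cultures, estimated in part from all rows. Without the block that spread includes differences between replicate numbers.

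The main fit had no block. Same-numbered arrays were taken as pairs only in the replicate block and in the same-numbered comparisons. The reason was that deviations from group means correlated within each number (0.398, 0.242 and 0.499). Between different numbers these correlations ran from -0.496 to 0.221, so the highest lay close to the lowest within a number. The labels do not establish that same-numbered arrays are pairs, and the pairing is an assumption. Blocked values stand beside results whose call or count they change.

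Members and lists were chosen with earlier results of these data known. The naming rule took every called member, a set of chains and subunits named whatever they did, partners of called members, and from each list all calls up to 6 or otherwise the 5 with the smallest adjusted p. Other members and list genes were named after their values were seen. Alternatives were the replicate block, trended variance, array weights, centring, repeated quantile normalization, leaving out dim rows, a threshold of 0.01, a wider symbol rule and leaving out arrays. Promoter windows were RefSeq's, build GRCm38.p6, and motifs were searched on both strands.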

Additional observations from a re-analysis of the deposited data

How the results depend on the processing

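The count of members lower was 7 and that of members higher 1. With the replicate block they were 12 and 3. The higher count was 4 with array weights, 4 with arrays centred (beside 7 lower), 2 with repeated quantile normalization, 2 without the dimmest 20% of rows, 2 without both arrays numbered 3, 2 under the wider symbol rule, which adds Itgb1bp1, and 0 at a threshold of 0.01. The lower count was 5 at that threshold, 9 with array weights, 8 without the dimmest 20% of rows and 6 without the dimmest 50%. Leaving out 1 array in turn gave 6 to 7 lower and 0 to 2 higher. The share of all rows called moved as well. Members called in either direction, against rows called, were 10.8% against 18.6% as reported and 20.3% against 28.7% with the block. They were 17.6% against 31.8% with array weights, 14.9% against 21.2% with arrays centred and 6.76% against 9.24% at 0.01. Without the dimmest 50% of rows they were 43.8% against 34.2%. With 1 array left out they were 8.11% to 12.2% against 10.6% to 19.7%. The median difference of -0.058 was -0.0059 with arrays centred, and -0.077 to -0.0096 with 1 array left out. The 8 called members kept their direction under these alternatives, while 23 of the 66 that did not pass changed sign under at least 1 of them, Itgb1 between -0.41 and 0.18. The causes of these shifts were not tested. The limits are 3 arrays a group, no detection call, and the low signal of most collagen and laminin chains.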

Other observations

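Taken by same-numbered arrays, 19 of the 74 members (25.7%) were lower in CsA in all 3 numbers, against 24.0% of all rows, and 11 (14.9%) were higher in all 3, against 32.8%.

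Markers of other cell types were read beside the members. The summed level of 10 macrophage markers was 9.55 to 9.95 in DMSO and 10.86 to 10.96 in CsA, and 1 of the 10, Cd14, the endotoxin co-receptor, was above the median of all rows and higher (2.82-fold). Vsig4, a complement receptor of Kupffer cells, was lower (-0.70), 6 of the 10 differences were below 0, and the list's array medians were 4.58 to 5.21 in DMSO and 4.47 to 4.85 in CsA. That of 13 endothelial markers was 9.06 to 9.38 and 9.02 to 9.18, with Stab2, a scavenger receptor of sinusoidal endothelium, lower (-0.52). That of 6 cholangiocyte markers was 8.56 to 8.77 and 8.60 to 9.18, with Sox9 lower (-0.59). Prom1, a membrane protein of progenitor cells, differed by 1.11 and passed with the replicate block (higher), as did Krt19 (lower, -0.48), and the list's array medians were 6.07 to 6.28 in DMSO and 5.84 to 5.95 in CsA. Of 7 lymphocyte and neutrophil markers and of 5 platelet markers 0 passed in limma, with 0 and 1 at an unadjusted p under 0.05 and 0 and 1 higher with the replicate block, and their summed levels were 6.95 to 7.25 and 7.41 to 7.56 in DMSO and 6.92 to 7.23 and 7.63 to 7.88 in CsA. The part of these cells in the members' values was not tested.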
